A study of Mus musculus with 12 samples.

Results

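The genes of the mitochondrial respiratory chain were followed in single cells of newborn mouse prefrontal cortex, in both of the genomes that encode them. Members were taken by symbol, namely every gene of the table that starts with Nduf, Uqcr, Cox, Atp5 or mt-, together with Sdha, Sdhb, Sdhc and Sdhd. This gave 114 members of 18879 genes, 101 nuclear and 13 mitochondrially encoded. Of the nuclear members, 76 were subunits of complexes I to V and were summed, while 17 were assembly factors, 6 were tissue isoforms, 1 was the supercomplex factor Cox7a2l and 1 carried a pseudogene symbol (Ndufb1-ps).

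The study compared prefrontal cortex of mice at postnatal day 0 with 3 genotypes of Myt1l, a transcription factor of neurons. The labels give the strain as C57BL/6J, whereas the methods describe zygotes and breeding partners of a C57BL/6N background. WT animals carried 2 intact copies, HET animals 1 mutant copy and HOM animals only mutant copies, and the mutant allele lacks 7 bp of exon 6, which shifts the reading frame into a stop at residue 78. All cells were fixed in methanol, and cells of 2 animals per genotype went together into 1 droplet library, with reads starting at the 5′ end of each transcript. Each library was sequenced in 4 runs, which make up the 12 samples, so a genotype is 1 library, no cell was assigned to an animal here, and no difference between genotypes could be tested.

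The respiratory chain sits in the inner mitochondrial membrane and passes electrons from NADH and succinate to oxygen. Complexes I, III and IV pump protons with the energy released, complex II feeds in electrons without pumping, and complex V, the ATP synthase, lets the protons flow back to make ATP. Complex II is encoded in the nucleus alone, whereas the others also need subunits made from mitochondrial DNA, so that both genomes contribute to one enzyme.

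The table held 36263 cells of 21 deposited cell types, with 10503 cells and 23288915 molecules in WT, 12072 cells and 27370206 molecules in HET, and 13688 cells and 36398283 molecules in HOM. Members were compared in the 18 types that held at least 100 cells in each library. A level is a gene's depth-corrected sum per 1000000 of all genes in a cell type and library, and each molecule is counted once from its 5′ end, so levels were not divided by transcript length. A log2 ratio is the mean over cell types of the log2 ratio to WT, with an SD over cell types, which are not replicates. Both mutant libraries are set against the same WT library. Where 3 values stand in a row they belong to WT, HET and HOM, and 2 ratios in a row to HET and HOM. The libraries stood apart in more than genotype. Cells with Xist, which marks female cells, numbered 2121, 2 and 1 in WT, HET and HOM, and those with a Y-linked transcript 603, 1865 and 2086. Over all cells, sex and genotype therefore cannot be told apart between WT and the mutants. Cells with a Y-linked transcript occurred in all 3 libraries, and values from these cells alone are given with the mitochondrially encoded genes. Median depth was 1045, 1099 and 1330 molecules per cell, and 648 barcodes occurred in more than 1 library. Myt1l RNA in LayerII-IV [1-P] neurons was at 737, 889 and 1406, and since a frameshift can leave a transcript in place, this level does not check the labels. Genotype names here follow the deposited cell table. Legends of the study pair them otherwise, giving the cell number of the library called WT here to homozygous mutants, that of HOM to heterozygotes and that of HET to wild type. If the legends were right, each ratio would compare other genotypes than named. Marker lists of layer neurons, interneurons, striatal neurons, astrocytes, oligodendrocytes, microglia, endothelial cells and layer I neurons each peaked in a type so named in all 3 libraries, which is no independent check for microglia, named by the study from markers. Endothelial2 [21-P] went against its name (described with the isoforms), and choroid plexus markers peaked outside the choroid plexus cells at no more than 13.04 per 1000000.

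Not every member could be compared. A gene was measured in a type when its values in both libraries together reached 50. This held in all 18 types for 81 members in HET and 85 in HOM, in at least 6 types for 100 and 102, in 1 to 5 types for 9 and 7, and in no type for 5, namely Cox15, Cox6a2, Cox6b2, Cox7a1 and Cox7b2. Ratios are averaged only for members measured in at least 6 types, which keeps all 76 nuclear subunits and leaves out rare assembly factors, tissue isoforms and mt-Nd6.

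Transcripts of mitochondrial DNA outweighed those of the nuclear subunits in every compared type. In WT the 13 mitochondrially encoded genes summed to a mean level of 53130 over the 18 types and the 76 nuclear subunits to 23492, a mean ratio of 2.25. Mitochondrially encoded subunits of complex IV took the largest share, at 21322, followed by those of complex I at 13975, of complex V at 10529 and mt-Cytb of complex III at 7303. Among nuclear subunits, complex V summed to 7750, complex I to 7060, complex IV to 6188, complex III to 1984 and complex II to 510. The most abundant single nuclear subunits were Cox4i1, the largest nuclear-encoded subunit of cytochrome c oxidase, at 1025, and Atp5g3, a gene for the c subunit of the ATP synthase rotor, at 899. The least abundant was Ndufs1, the large iron-sulphur subunit of complex I, at 66.7.

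Cell types differed within a narrow span. The summed nuclear level in WT ran from 18595 in SVZ1 (migrating) [2-P], migrating cells by their label, to 29418 in Astrocytes (immature) 2 [13-P], a span of 1.58-fold. The mitochondrially encoded sum ran from 37119 in Ganglionic eminences [9-P], which carry markers of cycling cells, to 75502 in LayerII-IV [4-P] neurons, a span of 2.03-fold. When types were ordered by the mean of the 3 libraries, the ranges of all 17 pairs of neighbours overlapped, for the nuclear sum, the mitochondrially encoded sum and their ratio alike.

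The order also followed the depth of the cells. Across the 18 types of WT, Spearman's rho between the median molecules per cell and the summed level was -0.78 for nuclear and -0.91 for mitochondrially encoded genes, a description of points that share a library and a depth correction. In HOM the values were -0.87 and -0.94. Among cells under 1000 molecules alone, SVZ1 (migrating) [2-P] was still the lowest type for nuclear subunits in all 3 libraries, at 24600, 29071 and 31073 in WT, HET and HOM, and Ganglionic eminences [9-P] the lowest for mitochondrially encoded genes, at 61885, 59650 and 47397. LayerV-VI [18-P] neurons were then highest for mitochondrially encoded genes, at 86222, 87771 and 75021. From 2000 molecules upwards the order was another one. The lowest nuclear sum was then in Endothelial1 [17-P] in WT and in Microglia in HET and HOM, and the lowest mitochondrially encoded sum in Astrocytes (immature) 1 [10-P] in all 3 libraries. The part of depth in the order of types was not tested beyond these classes.

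**Figure D1:**
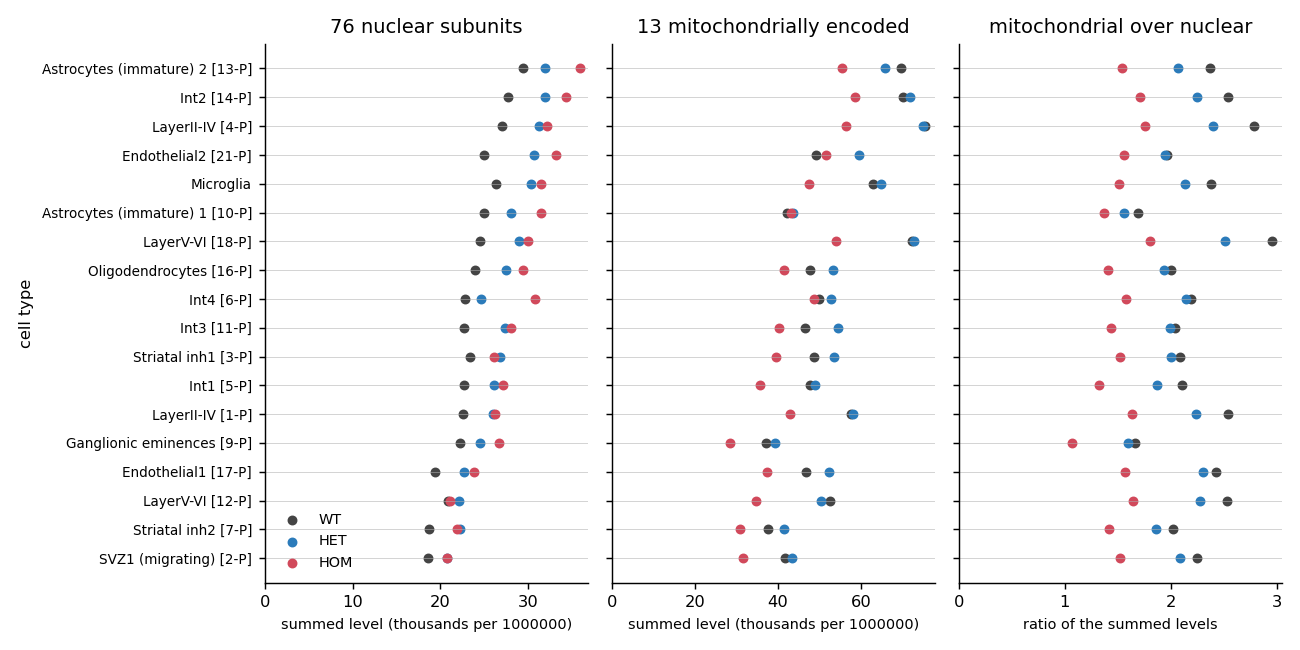
Summed level of the 76 nuclear subunits (left), of the 13 mitochondrially encoded genes (middle), both in units of 1000 per 1000000, and their ratio (right), for 18 cell types (y axis, ordered by nuclear level), each library drawn as its own point. HOM points lie to the right of WT for nuclear subunits in 18 of 18 types and to the left for the ratio in 18 of 18.

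Nuclear subunits stood higher than WT in both mutant libraries. In LayerII-IV [1-P] neurons, the largest layer type, their sum was 22641 (WT), 25972 (HET) and 26255 (HOM). Over the 18 types the log2 ratio of the sum was 0.19 ± 0.06 in HET and 0.27 ± 0.09 in HOM (SD over types), and it lay above 0 in 18 of 18 types in both. The smallest HOM value was 0.02 in LayerV-VI [12-P] and the largest 0.44 in Int4 [6-P].

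Single subunits moved in the same direction. In HET the median log2 ratio of the 76 subunits was 0.21, beside -0.02 for all 5403 genes measured. Above 0 lay 70 subunits, beside 2579 of these genes. In HOM the median was 0.29, beside -0.08 for 5542 genes, and again 70 subunits lay above 0, beside 2246 of these genes. Past a log2 ratio of 0.3 upwards, a 1.23-fold difference, were 13 of 88 measured nuclear members in HET (14.8%), beside 6.40% of all genes, and 35 of 90 in HOM (38.9%), beside 11.5% of all genes. Past the same bound downwards were 0 nuclear members in HET, beside 15.1% of all genes, and 3 in HOM (3.33%), beside 26.5% of all genes. The upward HET count moved with the cells and genes used. Deep cells, from 2000 molecules, gave 28 (beside 10.9% of all genes), those from 1000 to below 2000 gave 20 (12.8%), and a minimum sum of 200 per gene gave 7 (6.63%). With that minimum 1 member passed downwards in HOM, beside 11.7% of all genes. The members measured in each of these subsets were not counted, so their shares are not given. Above 0 in each of the 18 types were 8 of the 67 subunits measured in all of them in HET (11.9%), beside 7.66% of 770 genes, and 16 of 70 in HOM (22.9%), beside 14.04% of 926 genes.

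Short transcripts as a whole moved the same way, and respiratory chain transcripts are short. The longest annotated transcript had a median of 1135 bases in the nuclear members and of 3038 bases in all genes. In the shortest of 5 length classes, up to 1857 bases, genes that are not nuclear subunits had a median log2 ratio of 0.16 in HET and 0.19 in HOM, and the 56 subunits of that class 0.21 and 0.29. In that class 15.6% of all genes passed the bound upwards in HET and 30.7% in HOM. In the 2 longest classes other genes were lower, with medians of -0.14 and -0.22 in HET and of -0.25 and -0.33 in HOM, while the 3 and 1 subunits found there had medians of 0.30 and 0.21 in HET and of 0.34 and 0.29 in HOM. These subunits, Ndufb2, Ndufb7, Atp5g1 and Atp5l, stand there by their longest annotated transcript alone. For Ndufb7 and Atp5l it has 4435 and 6310 bases, most of the 4956 and 8186 bases of the gene. Which transcript the cells used was not examined, so they may be short transcripts placed in a long class. With the length trend of all genes removed, the median over nuclear subunits was 0.056 in HET and 0.11 in HOM. Nuclear members past the bound upwards numbered 4 of at most 88 in HET and 9 of at most 90 in HOM, in place of 13 and 35. Those shares were below the 5.71% and 12.3% of all genes. Downwards there were 6 in HOM in place of 3, beside 10.8% of all genes. Among genes whose sum reached 200, which are the more abundant ones, the median over all genes was 0.06 in HET and 0.09 in HOM, beside 0.20 and 0.27 for nuclear subunits. The part of length and abundance in the nuclear ratios was not tested.

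**Figure D2:**
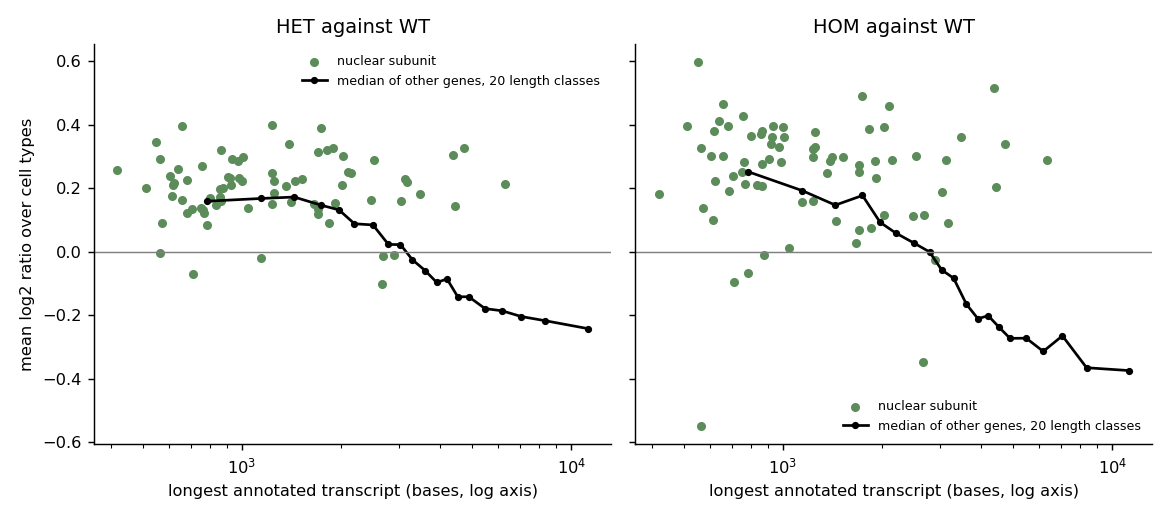
Mean log2 ratio to WT over cell types (y axis) against the longest annotated transcript in bases (x axis, log scale) for HET (left) and HOM (right), with green points for nuclear subunits and a black line for the median of all other genes in 20 length classes. The line falls with length, and most subunits lie where it is above 0, at or above it.

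**Figure D3:**
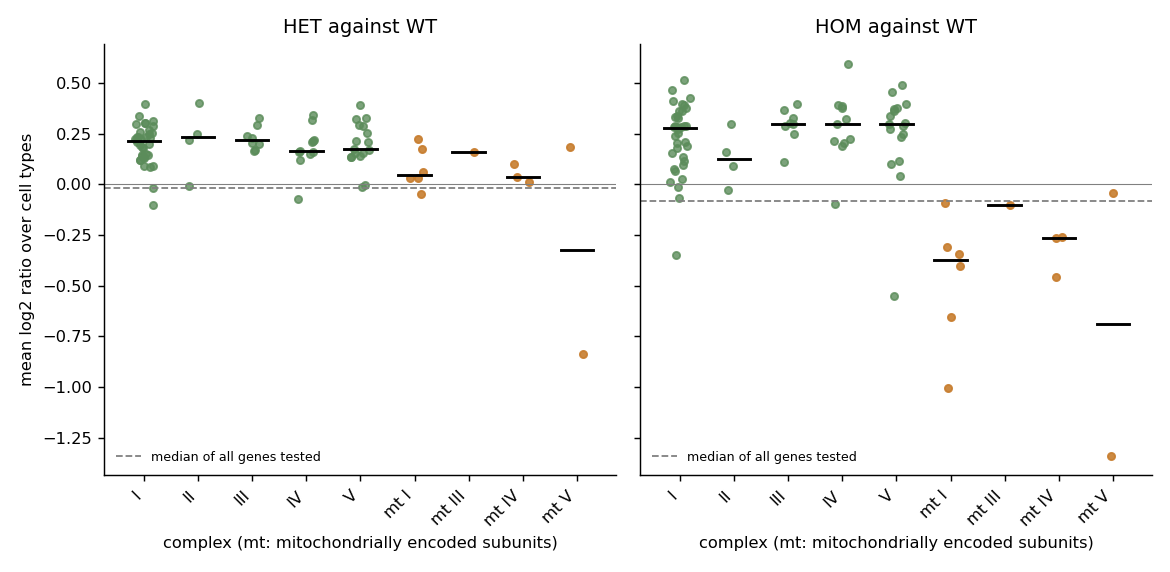
Mean log2 ratio to WT over cell types (y axis) of each nuclear subunit (green) and each mitochondrially encoded subunit (orange, mt) by complex (x axis), with black bars for medians and a dashed line for the median of all genes measured. In HOM the nuclear medians lie between 0.12 and 0.30 and every mitochondrially encoded subunit measured lies below 0.

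Complex I, the NADH dehydrogenase, has most of the members. Its 36 nuclear subunits had median log2 ratios of 0.22 in HET and 0.28 in HOM. In HOM 33 of them lay above 0, beside 2246 of all 5542 genes. The 7 core subunits, which carry the flavin and iron-sulphur centres, had medians of 0.15 and 0.08, and the 29 accessory subunits 0.22 and 0.28. Ndufb6, an accessory subunit of the membrane arm, had mean levels of 163 (WT), 213 (HET) and 224 (HOM), with log2 ratios of 0.40 ± 0.28 and 0.46 ± 0.22, higher in 18 of 18 and 17 of 18 types. Ndufb2, also accessory, went from 152 to 190 and 221 and had the highest HOM ratio of complex I, 0.52 ± 0.30. Ndufa12 stood at 140, 175 and 172, with ratios of 0.34 ± 0.27 and 0.29 ± 0.27.

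The 3 most abundant subunits of complex I were accessory ones. Ndufc2, part of the membrane arm and the most abundant, was at 471, 501 and 519, with ratios of 0.12 ± 0.17 and 0.19 ± 0.23. Ndufb9 had 0.13 and 0.24, and Ndufa13 had 0.22 and 0.38, the latter above 0 in 18 of 18 types. Ndufv1, the core subunit where NADH gives up its electrons, had 0.15 in HET and 0.03 in HOM, above 0 in 13 and 9 types.

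The core subunit Ndufs1 ran against its complex. Its levels were 66.7, 59.0 and 54.6, with log2 ratios of -0.10 ± 0.23 and -0.35 ± 0.36 over 12 measured types, lower in 9 and 10 of them. The accessory subunit Ndufa6 was close to WT in HET (-0.02 ± 0.21) and at 0.16 ± 0.17 in HOM. Ndufb1-ps had mean levels of 160, 151 and 108, with -0.10 in HET and -0.57 ± 0.36 in HOM, lower in 18 of 18 types. Its symbol carries a pseudogene suffix, and it was left out of the 76 subunits and their sums. Whether it encodes a subunit of complex I was not examined, and counting it would add a member below 0. The treatment of reads shared between a gene and its near copies was not given in the sources used here. The value of Ndufb1-ps is therefore uncertain, and many other nuclear members also have pseudogene copies.

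Complex II, succinate dehydrogenase, showed the smallest ratio in HOM. Its 4 subunits had a median of 0.23 in HET and 0.12 in HOM. Sdhb, the iron-sulphur subunit, had mean levels of 230, 305 and 282, with log2 ratios of 0.40 ± 0.21, higher in 18 of 18 types, and 0.30 ± 0.20, higher in 16. Sdha, the flavoprotein that holds the succinate site, was at 96.8, 90.9 and 90.6, with -0.01 ± 0.20 and -0.03 ± 0.22 over 16 types. The membrane anchors Sdhc and Sdhd had ratios of 0.22 and 0.25 in HET and of 0.09 and 0.16 in HOM. In both libraries the ratio of Sdha was smaller than its SD over types and that of Sdhb larger.

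Complex III, ubiquinol-cytochrome c reductase, moved evenly, with all 8 nuclear subunits above 0 in both libraries, from 0.16 to 0.33 in HET and from 0.11 to 0.40 in HOM, and medians of 0.22 and 0.30. Uqcrh, the hinge subunit that contacts cytochrome c1, was at 388, 436 and 507, and its HOM ratio was 0.37 ± 0.20, above 0 in 18 of 18 types. Uqcr11 and Uqcrq, small subunits of the membrane part, had HOM ratios of 0.30 and 0.30.

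Complex IV, cytochrome c oxidase, held the nuclear subunit with the highest HOM ratio. Cox8a, a small membrane subunit, had mean levels of 603 (WT), 760 (HET) and 913 (HOM). In LayerII-IV [1-P] neurons it was at 558, 654 and 743. Its log2 ratio was 0.34 ± 0.13 in HET and 0.60 ± 0.19 in HOM, a 1.51-fold difference, and it was above 0 in 18 of 18 types in both. Cox5a, which binds the matrix side of the enzyme, was also above 0 in 18 of 18 types in both libraries, with 0.32 ± 0.20 and 0.39 ± 0.21.

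Other abundant subunits of complex IV moved less. Cox4i1 went from 1025 in WT to 1117 in HET and 1191 in HOM, with ratios of 0.12 ± 0.14 and 0.21 ± 0.13. Ndufa4, named for complex I but now placed in complex IV, had 0.15 and 0.32. Cox7c, at 744 in WT, was the one nuclear subunit of the complex below 0, at -0.07 ± 0.19 in HET and -0.10 ± 0.17 in HOM. Cox7a2l, listed here as a factor for supercomplexes of complexes III and IV, was at 240, 242 and 217, with 0.01 in HET and -0.15 ± 0.21 in HOM. Whether it has that role in this strain was not examined.

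Complex V, the ATP synthase, had 17 nuclear subunits with medians of 0.17 in HET and 0.30 in HOM. Atp5c1, the central shaft that turns inside the catalytic head, was at 405, 530 and 567, with ratios of 0.39 ± 0.16 and 0.49 ± 0.18, above 0 in 18 of 18 types in both. Atp5b, the catalytic beta subunit, was at 583, 652 and 688, with 0.15 and 0.23. Atp5j2, a small subunit of the membrane part, had 0.25 in HET and 0.46 ± 0.21 in HOM. Atp5k, which helps ATP synthase dimers form, was the one nuclear subunit of the complex below 0 in HOM. Its mean level was 263, 264 and 187, and its ratio was -0.00308 in HET and -0.55 ± 0.41 in HOM, lower in 16 of 18 types.

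The c ring of the rotor is encoded by 3 genes, Atp5g1, Atp5g2 and Atp5g3, which make the same mature protein from different precursors. Atp5g3 supplied the largest share of their summed level in the median type, 49.6% in WT, 52.4% in HET and 52.0% in HOM. Atp5g2 supplied 34.7%, 31.5% and 32.0%, and Atp5g1 15.7%, 17.3% and 15.9%. The mix differed by cell type. In Ganglionic eminences [9-P], Atp5g2 made up 47.0%, 44.4% and 49.9% in WT, HET and HOM, more than in any other compared type in each library, whereas in LayerV-VI [18-P] it made up 24.5%, 23.2% and 20.9%. The ranges of these 2 types did not overlap. Atp5g3 had the steadiest ratio of the 3, at 0.32 ± 0.08 in HET and 0.38 ± 0.09 in HOM, beside 0.33 and 0.34 for Atp5g1 and 0.14 and 0.25 for Atp5g2.

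The mitochondrially encoded genes did not follow the nuclear ones. In LayerII-IV [1-P] neurons they summed to 57540 (WT), 58137 (HET) and 42973 (HOM). Over the 18 types the log2 ratio of the sum was 0.07 ± 0.09 in HET, above 0 in 15 types, and -0.30 ± 0.17 in HOM, below 0 in 16. The 2 HOM types above 0 were Endothelial2 [21-P], at 0.07, and Astrocytes (immature) 1 [10-P], at 0.03, and Int4 [6-P] was at -0.03. HOM cells were shallower than WT cells in these 3 types, with medians of 1005, 1106 and 913 molecules beside 1099, 1900 and 1196, and the other types with shallower HOM cells, Int2 [14-P] and Int3 [11-P], were at -0.26 and -0.21. Over all cells, HOM was the deepest library. Within 3 broad classes of depth, inside which depth was not matched, the HOM ratio was -0.20 under 1000 molecules, -0.30 from 1000 to below 2000 and -0.26 from 2000 upwards. With the cells limited to those that held a Y-linked transcript, which left 11 types with at least 20 such cells per library, it was -0.11, and the HET ratio was 0.24.

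The share of mitochondrial transcripts per cell in the deposited cell table comes from the same cells and transcripts, so it is no independent check. The median over cells was 4.89% in WT (quartiles 3.01 and 7.91), 5.36% in HET (3.37 and 8.24) and 3.76% in HOM (2.45 and 6.15). The authors discarded cells above 15%, so the upper end is set by that filter. In LayerII-IV [4-P] neurons the medians were 7.09%, 6.99% and 5.04%, the highest of the compared types in WT.

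Genes of the mitochondrial genome differed from each other. In HOM 7 of the 12 measured in at least 6 types lay below -0.3, beside 26.5% of all genes. All 12 lay below 0, beside 3296 of all 5542 genes, and their median was -0.33. In HET 1 of 12 lay below -0.3, beside 15.1% of all genes, with a median of 0.05 whose sign turned in the 4 layer types alone, at -0.00457, and with the length trend removed, at -0.11. mt-Atp8, a small subunit of the ATP synthase membrane part, was lower in both. Its mean level was 1930, 1084 and 769, and its lowest WT type, at 1374, lay above the highest HOM type, at 1131. The log2 ratio was -0.84 ± 0.10 in HET and -1.34 ± 0.23 in HOM, a 0.395-fold level, and below 0 in 18 of 18 types in both.

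mt-Atp6, another membrane subunit of the ATP synthase, is read from the same RNA as mt-Atp8 and did not share its ratio. Its mean level was 8599, 9696 and 8303, with log2 ratios of 0.19 ± 0.10 and -0.04 ± 0.17. The level of mt-Atp8 was between 0.21 and 0.24 of that of mt-Atp6 in every type of WT, between 0.10 and 0.12 in HET and between 0.08 and 0.11 in HOM, so that the range of WT did not overlap those of the mutants. The reading frames of both genes overlap on the plus strand, as do those of mt-Nd4l and mt-Nd4, and the sequences are shown because a read from the bases in capitals belongs to both frames. They come from the GENCODE M21 transcripts of GRCm38 (mm10). The first spans chrM:7912-7984 with 43 shared bases, from the start codon of mt-Atp6 to the end of mt-Atp8, and the second chrM:10152-10188 with 7.
mt-Atp8 and mt-Atp6: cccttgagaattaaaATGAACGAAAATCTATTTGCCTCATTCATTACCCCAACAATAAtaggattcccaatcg
mt-Nd4l and mt-Nd4: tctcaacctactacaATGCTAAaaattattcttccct

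The other overlapping pair changed less. The level of mt-Nd4l was a median of 2.92 times that of mt-Nd4 in WT, 2.85 in HET and 2.40 in HOM, and the ranges over types overlapped. mt-Nd4l had ratios of 0.17 ± 0.12 and -0.35 ± 0.20, and mt-Nd4 of 0.22 ± 0.17 and -0.09 ± 0.22. Both encode proton-pumping membrane subunits of complex I.

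Among the remaining complex I genes, mt-Nd3 stood lowest in HOM, with mean levels of 902, 860 and 453 and ratios of -0.05 ± 0.17 and -1.01 ± 0.25. mt-Nd1 was at 4391, 4448 and 2817, with 0.03 and -0.65 ± 0.23, and was lower in 18 of 18 types in HOM. mt-Nd2 and mt-Nd5 had HOM ratios of -0.31 ± 0.23 and -0.40 ± 0.23. mt-Nd6, the only mitochondrially encoded gene on the minus strand, was rare, with levels of 38.5, 15.2 and 14.7. It was measured in 4 types in HET and 5 in HOM and was lower in each.

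The mitochondrially encoded subunits of complex IV had HOM ratios of -0.27 ± 0.18 for mt-Co1, -0.26 ± 0.17 for mt-Co2 and -0.46 ± 0.19 for mt-Co3. Their HET ratios were 0.04, 0.01 and 0.10. mt-Cytb, the one mitochondrially encoded subunit of complex III, was at 7303, 8104 and 6778, with 0.16 ± 0.10 and -0.10 ± 0.15. Across the 12 genes, which share 1 genome and its precursor RNAs, Spearman's rho between gene length and log2 ratio was 0.27 in HET and 0.38 in HOM.

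**Figure D4:**
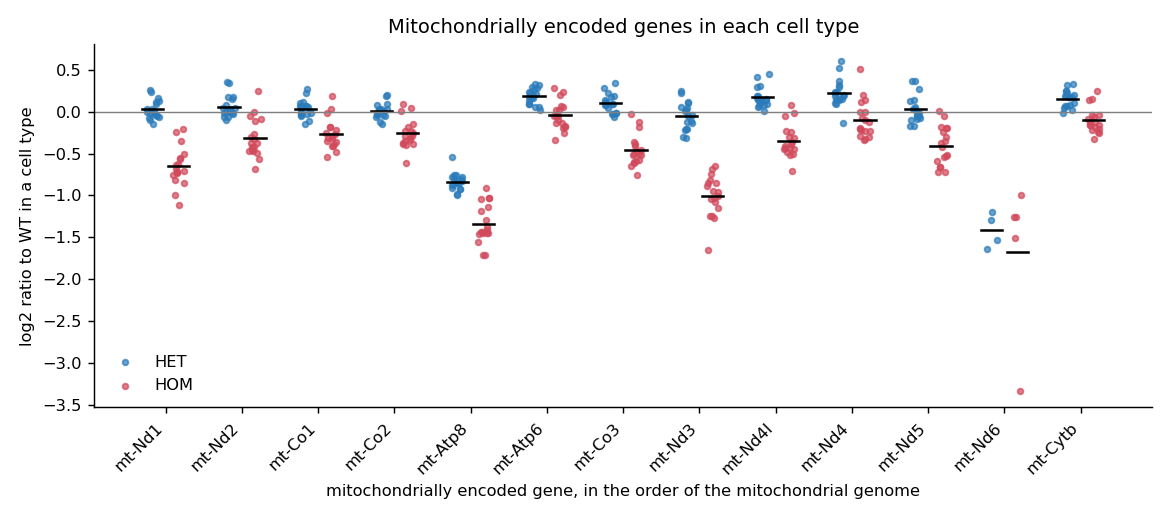
Log2 ratio to WT (y axis) of the 13 mitochondrially encoded genes in the order of the mitochondrial genome (x axis), with a point for each cell type in which the gene was measured and a black bar for the mean. Points of mt-Atp8 lie below 0 in 18 of 18 types in both libraries, and those of mt-Nd3 and mt-Nd1 in HOM alone.

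Gm42418, AY036118 and Lars2, which mark ribosomal RNA or RNA quality, were lower than WT in both mutant libraries, as was mt-Atp8. Gm42418, which overlaps a ribosomal RNA repeat, had mean levels of 26333, 12932 and 13614, with log2 ratios of -1.02 and -0.96, lower in 18 of 18 types in both. AY036118 had -2.19 and -2.03 and Lars2 -1.01 and -1.41. Lars2 and mt-Atp8, the latter at -0.84 and -1.34, were lower in HOM than in HET, whereas Gm42418 and AY036118 were not. Of the 12 mitochondrially encoded genes measured in HET, 10 lay above 0. Malat1, a nuclear RNA, had 0.04 and -0.20. The part of these differences between libraries in the mitochondrially encoded ratios was not tested.

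The balance of the 2 genomes lay below that of WT in each compared type. The mitochondrially encoded sum divided by the nuclear sum was 2.54, 2.24 and 1.64 in LayerII-IV [1-P] neurons of WT, HET and HOM. Its mean over types was 2.25, 2.06 and 1.52. The log2 ratio to WT was -0.12 ± 0.07 in HET and -0.56 ± 0.11 in HOM, below 0 in 18 of 18 types in both. In HOM it ran from -0.71 in LayerV-VI [18-P] to -0.30 in Astrocytes (immature) 1 [10-P]. With cells limited to those that held a Y-linked transcript, its sign turned in HET, at 0.00207, and it was -0.41 in HOM.

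A pair of tissue isoforms was concentrated in 1 cell type. Cox4i2, the counterpart of Cox4i1 that is known from lung and low oxygen, lies on chromosome 2 from 152754173 to 152765037 on the plus strand, and Ndufa4l2, the counterpart of Ndufa4 that is induced in low oxygen, on chromosome 10 from 127514967 to 127517154 on the plus strand (mm10). In Endothelial2 [21-P], Cox4i2 was at 382 (WT), 643 (HET) and 583 (HOM), and the next highest compared type, Astrocytes (immature) 1 [10-P], was at 32.4, 39.1 and 62.3. Ndufa4l2 was there at 1519, 1881 and 1214, and at most at 32.5 in any other compared type.

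The label of that type went against its markers. Its cells carried the mural cell genes Rgs5, at 7412, 8332 and 5289, and Vtn, at 3332, 4125 and 3977, while the endothelial genes Cldn5 and Pecam1 reached at most 55.3 and 6.51. Pdgfrb, Kcnj8 and Abcc9 of the mural list were at 797 or more in each library. Acta2, the remaining gene of that list, went the other way, at 0, 17.3 and 26.0. The type is named here as deposited. Meningeal fibroblast genes were highest there as well, all 4 listed being higher in HOM, with Col1a2 at 227, 242 and 553 and Dcn at 0, 0 and 215, and their part in the isoform levels was not tested. Cells with a depth-corrected Cox4i2 value above 0 made up 29.8%, 39.8% and 35.4% of Endothelial2 [21-P] and 0.05%, 0.35% and 0.53% of LayerII-IV [1-P] neurons, at median depths of 1099, 1073 and 1005 and of 1047, 1365 and 1953 molecules. For Ndufa4l2 the shares were 69.3%, 78.1% and 50%, and 0.37%, 0.88% and 0.73%.

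The common isoforms were present beside them. In Endothelial2 [21-P], Cox4i1 was at 1336, 1532 and 1565, so that Cox4i2 stood at 0.29, 0.42 and 0.37 of it. Ndufa4 was at 448, 410 and 625, and Ndufa4l2 exceeded it by 3.39, 4.59 and 1.94 times. The other isoforms, which are known from muscle, testis or brown fat, were close to absent. The highest level in a compared type was 13.2 for Cox6a2, 22.8 for Cox6b2, 4.96 for Cox7a1 and 2.20 for Cox7b2.

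**Figure D5:**
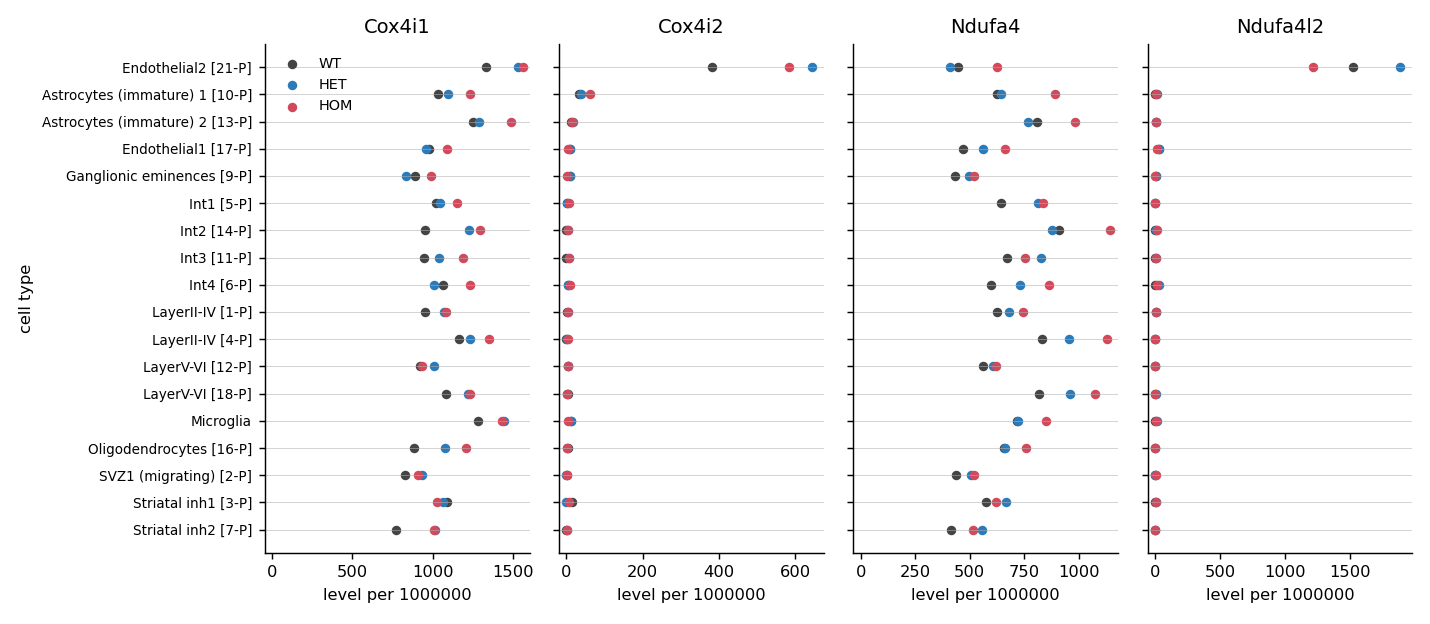
Level per 1000000 (x axis) of Cox4i1, Cox4i2, Ndufa4 and Ndufa4l2 for 18 cell types (y axis), each library drawn as its own point. Cox4i2 and Ndufa4l2 lie near 0 outside Endothelial2 [21-P], where they reach 643 and 1881.

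The other members leaned towards a cell type far less. Among the 83 members whose values summed to at least 5000 over all cells, the highest type exceeded the median type by a median of 1.33-fold in the library where this ratio was smallest, and by at most 2.09-fold. The highest was Ndufc2, at 1178, 1089 and 1046 in Astrocytes (immature) 1 [10-P] and at 399, 444 and 439 in LayerII-IV [1-P]. Cox5a was highest in Int1 [5-P], at 837, 1187 and 1069. Ndufv1 was highest in Endothelial1 [17-P], at 285, 321 and 246. For 13 of the 83 the same type was highest in all 3 libraries.

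Promoter motifs, which the symbol rule did not use, were found in a minority of the nuclear members. NRF1, GABPA and YY1 are transcription factors known to act on many respiratory chain genes. Their motifs GCGCATGC, CCGGAAGT and AAGATGGC were searched on both strands of RefSeq promoters (GRCm38.p6, from 250 bases before to 50 after a gene's start), where 83 of the 101 nuclear members had an entry, and no overlap between motifs was removed. The NRF1 motif was found in 12 of the 83 (14.5%) and in 2.80% of all 27025 promoters, the GABPA motif in 8 (9.64%) and in 4%, and the YY1 motif in 12 (14.5%) and in 2.88%. At least 1 motif was in 30 of the 83 (36.1%), so most held none, and in 9.15% of all promoters. A match describes letters and no binding was measured here.

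Motifs were also looked up at the ends of the list. Of the 15 nuclear members with the 5 highest and 5 lowest log2 ratios of either library, 14 had a promoter entry and 5 of these a motif, a share like that of all nuclear members. Cox8a, Sdhb and Atp5j2 were among the highest, Atp5k and Ndufa6 among the lowest. Their windows of 30 bases are given to show where the motifs lie in members whose ratios are reported, the NRF1 motif being in Sdhb as well as in Atp5k and Ndufa6. They are given 5′ to 3′ on the gene's strand with the motif in capitals, where ACTTCCGG and GCATGCGC are the GABPA and NRF1 motifs read on the opposite strand, from chr19:7217604-7217633 (minus), chr4:140961206-140961235 (plus), chr5:145191500-145191529 (minus), chr5:108434431-108434460 (minus) and chr15:82354356-82354385 (minus).
Cox8a, GABPA: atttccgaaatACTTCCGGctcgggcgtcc
Sdhb, NRF1: aagcccagtggGCATGCGCcctacgggccg
Atp5j2, YY1: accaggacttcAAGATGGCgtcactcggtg
Atp5k, NRF1: ctttcactgcgGCGCATGCgcctttctggc
Ndufa6, NRF1: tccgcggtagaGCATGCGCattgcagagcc

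Electron carriers and the assembly factors among the members had medians near that of the subunits, while further assembly factors did not in HOM. The 17 assembly factors among the members, which insert haem, copper and subunits, had a median of 0.19 over 10 measured in HET and 0.22 over 12 in HOM. Cox19, a copper protein, had 0.33 in HET and 0.32 in HOM, Cox16 -0.04 and 0.19, and Ndufaf2 0.16 and -0.17. Among 7 listed electron carriers that the symbol rule leaves out, 2 of 4 measured passed the bound upwards in HET and 3 of 5 in HOM, with medians of 0.32 and 0.30. Cyc1, cytochrome c1 of complex III, had mean levels of 183, 238 and 228, with 0.38 and 0.30. Cycs, cytochrome c itself, had 0.25 and 0.37, and Etfa, which carries electrons from fatty acid oxidation, 0.46 and 0.33. Of 35 further assembly factors, 1 of 16 measured passed upwards and 1 downwards in HET, and 3 and 1 of 17 in HOM, with medians of 0.17 and 0.06 and 9 of 17 above 0 in HOM. In HET the upward share of 6.25% was near the 6.40% of all genes, and in HOM it was 17.6%, beside 11.5%. In HOM Coa3, a factor for mt-Co1, had 0.71, Uqcc2, a factor for complex III, 0.53 and Pet100, a factor for complex IV, -0.41.

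Mitochondrial genes of other functions were mixed. Mitochondrial ribosomal proteins, which translate the 13 mitochondrially encoded subunits, had a median of 0.22 in both libraries, with 15 of 70 measured past the bound upwards in HET and 26 of 71 in HOM, where 3 were past it downwards. These upward shares of 21.4% and 36.6% compare with 6.40% and 11.5% of all genes and with 15.6% and 30.7% of all genes in the class of shortest transcripts. Downwards, 15.1% of all genes passed the bound in HET and 26.5% in HOM. Mrpl42 led them, with 0.57 and 0.65. Cytosolic ribosomal proteins, also short transcripts, had medians of 0.08 and 0.25, with 0 and 26 of 82 past the bound upwards and 0 and 5 downwards. Of 24 genes for membrane channels, carriers and import, 5 passed upwards and 1 downwards in HET and 6 and 2 in HOM, and Slc25a4, a carrier that exchanges ADP and ATP, was below WT in both, at -0.43 and -0.30. In HOM the import genes Timm8b and Timm44 stood at 0.50 and -0.74.

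Genes that copy and express mitochondrial DNA did not share one direction. Of 19 listed, 7 were measured in HET with a median of 0.06 and 0 past the bound, and 6 in HOM with a median of -0.13 and 1 past it downwards, Lrpprc, which stabilises mitochondrial messenger RNA, at -0.33. Tfam, which packages mitochondrial DNA, had 0.13 and -0.19, and Slirp, the partner of Lrpprc, 0.06 and 0.24. Of 11 biogenesis regulators 3 were measured, and Yy1, Nrf1 and Gabpb1 had -0.31, -0.23 and 0.07 in HET and -0.45, -0.19 and -0.23 in HOM. Glycolysis, the pathway upstream, is given for comparison: 5 of 13 measured genes passed upwards in HET and 11 of 15 in HOM, where 1 passed downwards, with medians of 0.25 and 0.63. All genes passed upwards in 6.40% and 11.5% and, in HOM, downwards in 26.5%. Ldha, which turns pyruvate into lactate, had 0.44 and 0.97 and Eno1, an enolase, 0.22 and 0.82. Red blood cell genes, which mark RNA from lysed cells, had medians of -0.39 and 0.50, and their part in the other ratios was not tested.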

How the data were processed

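Reads were aligned by the authors to mm10 (Cell Ranger 4.0.0), and Seurat 4.0 was used to keep cells with 200 to 4000 detected genes and up to 15% mitochondrial transcripts. Cell type names came from an atlas by label transfer, except microglia, which the authors named from Tmem119 and Aif1. The deposited matrix is in a score unit of whole numbers, taken to be molecule counts corrected for depth, since its totals per cell (825 to 1952) differ from the molecules per cell (499 to 17602). The correction was not given in the sources used here. In the deposited cell table the molecules are counts, the mitochondrial share is a percent and the certainty of a type name is a fraction. Deposited comparison tables of the authors (log2 fold change with p-value and adjusted p-value, fractions of cells above 0, cells taken as units) were not used. How doublets were treated was not given in the sources used here; no caller was run.

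Values were summed per cell type and library and divided by their total (Python 3.11.15, numpy 2.4.6, pandas 2.3.3, scipy 1.17.1). A gene was measured in a type where its sum over both libraries was at least 50, 0.5 was added to each sum, and means needed at least 6 types. With corrected values, no counting interval applies. HET and HOM were both set against the same WT library, so their ratios are not independent. The steps were checked on simulated data. Members, gene lists and alternatives were chosen with earlier results of these data known. Named were all mitochondrially encoded members, the Sdh genes, the tissue isoforms with Cox4i1 and Ndufa4, the 3 most abundant nuclear members per complex, the 5 highest and 5 lowest per comparison, members with a type at least 4 times the median type, and up to 3 genes per list. Cox5a, Ndufv1, Ndufb7, Atp5g1, Atp5l, Cox15, Cox19, Malat1 and Gm42418 were also named after their values were seen. Alternatives were other totals, minimum sums, depth classes, subsets of cells or types and a length correction. Coordinates and lengths come from GENCODE M21 (GRCm38).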

Additional observations from a re-analysis of the deposited data

How the results depend on the processing

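With 1 library per genotype, no replicate could be left out, and a value is called moved here when it shifts by more than the SD over cell types, or a count by more than 1.5 times. No paired analysis was possible because each genotype is 1 library and its replicate numbers only count sequencing runs. Of 255 values of 20 summaries, 215 stayed within that range. Of 1131 alternative values of the 82 named ratios, 1072 kept their sign, 396 of 396 among those past the bound. The named genes include those picked for the highest and lowest ratios, and every alternative reuses cells of the same 3 libraries. Kept signs were therefore likely from the outset and give no measure of variation between animals.

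Removing the length trend gave medians of 0.056 and 0.11 for nuclear subunits and of -0.11 and -0.54 for mitochondrially encoded genes (HET, HOM), with 4 and 9 nuclear members past the bound upwards and 6 downwards in HOM. A minimum sum of 200 gave 7 upwards in HET, 1 downwards in HOM and a ratio of the highest to the lowest type (a span, below nuclear then mitochondrially encoded) of 1.98 for nuclear subunits. A minimum of 20 gave 2 mitochondrially encoded genes downwards in HET, beside 18.9% of all genes. From 2000 molecules upwards there were 28 nuclear members upwards in HET, a summed nuclear ratio of 0.26 and spans of 1.80 and 2.44. From 1000 to below 2000 molecules there were 20 upwards in HET, 0 downwards in HOM (beside 10% of all genes) and spans of 1.36 and 1.46. Under 1000 molecules, added after the data were seen, there were 1 nuclear and 4 mitochondrially encoded members downwards in HOM, beside 17.96% of all genes. The spans were then 1.31 and 1.39. Where a count here stands without a share of all genes, that share is given with the nuclear ratios above.

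Cells with a Y-linked transcript gave 23 nuclear members upwards and 0 downwards in HOM, and 4 mitochondrially encoded downwards. Of the 694 genes measured there in HOM, 28.2% passed upwards and 10.2% downwards, and the members measured were not counted. The same cells gave a mitochondrially encoded median of 0.22 in HET and sums of 0.24 in HET and -0.11 in HOM. Their mitochondrial to nuclear ratios were 0.00207 in HET and -0.41 in HOM, and their spans 1.82 and 2.48. The 4 layer types gave mitochondrially encoded medians of -0.00457 and -0.52, a HET sum of -0.013, a HET mitochondrial to nuclear ratio of -0.20 and spans of 1.30 and 1.43. Totals over nuclear genes gave a mitochondrially encoded span of 2.14 and left 9 and 26 nuclear members past the bound upwards, beside 5.07% and 8.84% of all genes. The median of all genes in HOM ran from -0.13 with a minimum sum of 20 to 0.16 in cells with a Y-linked transcript. Leaving out barcodes found in more than 1 library, also added later, moved none of the summaries. The causes of the shifts under the other alternatives were not tested. No fit gives the variation between animals.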

Other observations

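The cell types with too few cells for comparison were not included above. LayerI [19-P] neurons, with 71 WT, 114 HET and 237 HOM cells, had a summed nuclear level of 30370, 34277 and 39629 and a mitochondrially encoded sum of 67922, 71704 and 59304, so their mitochondrial to nuclear ratio was 2.24, 2.09 and 1.5. SVZ2 (migrating) [8-P] cells numbered 44, 19 and 3, with ratios of 2.42, 2.07 and 1.37, and Choroid plexus [20-P] cells 8, 8 and 7, with 2.17, 1.37 and 1.72. Values that rest on so few cells are given without a comparison.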
